A study of Mus musculus with 23 samples.

Results

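Chromosome conformation capture carbon copy (5C) measures how often pairs of restriction fragments in a chosen region are joined after crosslinking, and so how often they lie close together in the nucleus. Here the contacts of the mouse gene Insig1 were followed through 21 libraries of the Shh region on chromosome 5. Insig1 was represented by 2 neighbouring bins of 21 kb, named bin3|mm9|chr5:28380087-28401087 and bin4|mm9|chr5:28401087-28422087 in the matrices (bins 3 and 4 of the 80 bins of the region, chromosome 5, build mm9). En2 falls in bin 8, and Nom1 and Mnx1 fall in bins 67 to 71. Gene positions within bins were taken from the description of the viewpoint, since no mm9 annotation was used. Its members are all pairs of these bins with another bin of the same 21 kb matrix, each replicate matrix being used and no summed matrix. They came to 151 of 2926 bin pairs that had a value in every library without the large D700 deletion. Bins 25, 29 and 64 held no value.

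Insig1 encodes a membrane protein of the endoplasmic reticulum that holds the sterol sensor SCAP back and promotes degradation of HMG-CoA reductase, and so lowers cholesterol synthesis. It is expressed in many tissues and is not known as a target of the Shh enhancers. En2, its neighbour, encodes a homeobox protein of the midbrain and hindbrain. Nom1, a nucleolar protein gene, and Mnx1, a homeobox gene of motor neurons and pancreas, lie at the far end of the region beyond Shh and its limb enhancer. Topologically associating domains (TADs) are stretches of chromatin that contact themselves more than their surroundings, and their boundaries often carry sites for the protein CTCF, at which loop extrusion by cohesin stalls. The region was divided into a left domain (bins 0 to 20), which holds Insig1 and En2, a central domain (bins 22 to 64) with Shh, and a right domain (bins 66 to 79).

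The 7 groups of embryonic stem cells were of the E14 line, with 2 libraries each: wild type, the edited lines DCTCF1, DCTCF2, DCTCF3, DCTCF4 and DCTCF5, and the line D35. The DCTCF names are read here as deletions of CTCF sites, and D35 as a deletion of about 35 kb. Bin 65 was left out of the fit of D35 against wild type. Neither the positions of the deleted sites nor whether a line is 1 clone is stated in the labels. The 4 groups of tissue were from CD1 mouse embryos at E11.5: anterior limb buds (2 libraries), posterior limb buds (2), bodies of unedited embryos (1) and whole embryos carrying the D700 deletion (2 libraries made from 4 samples, the 2 technical replicates of each biological replicate sharing 1 matrix). Each tissue library holds many cell types, the number of embryos behind it is not given, and contact data hold no expression markers with which the labelled tissue could be checked. In D700, bins 27 to 58 were left out, a stretch of 672 kb. The replicate libraries are called biological by their titles, but the run name of the second DCTCF2 library carries a mark of a technical repeat, so that the spread of that pair may be technical.

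The gene at the viewpoint has a GC-rich promoter, shown here because it identifies the viewpoint. The sequence holds the 250 bases before the start of Insig1, on the plus strand at chr5:28071162-28071411 of build GRCm38.p6, taken from RefSeq. That build differs from the mm9 of the contact matrices, and which of the 2 bins holds the promoter was not determined. Capitals mark the E-box CACGTG, which transcription factors of the SREBP family and others can bind, and the GC box GGGCGG, which can bind Sp1 (here also as its reverse complement).
Insig1 promoter: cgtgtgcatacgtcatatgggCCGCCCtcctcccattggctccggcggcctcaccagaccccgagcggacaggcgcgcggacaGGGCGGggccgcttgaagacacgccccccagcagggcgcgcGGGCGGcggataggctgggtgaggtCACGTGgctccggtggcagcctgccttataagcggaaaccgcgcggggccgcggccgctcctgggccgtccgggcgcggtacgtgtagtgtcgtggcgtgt
The window was 72.8% GC, with 1 E-box and 3 GC boxes. Of 32851 mouse promoter windows of this length, 6.02% held CACGTG and 32.7% held GGGCGG on either strand. The cutting site of HindIII, the enzyme of the assay (AAGCTT), was not among these letters. It was present in 6.22% of the promoter windows.

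The 2 bins rested on few restriction fragments. In the fragment matrices, bin 4 was read through a single fragment of 2766 bp (28416843 to 28419608), and bin 3 through 2 fragments (28385728 to 28388130, and 28388373 to 28403099). A pair of bin 4 drew on a median of 2 fragment pairs, a pair of bin 3 on 4, and a pair of any bins on 7. Of the pairs of bin 4, 32.9% rested on at most 1 fragment pair, against 5.26% over all pairs. Neighbouring pairs also often shared 1 value in the matrices (a median of 35.6% of neighbours for bin 4, 38.4% for bin 3 and 33.4% over all bins). Bins 67 to 71 gave only 3 distinct values with bin 3, so the 5 bins of a window are not separate measurements.

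In wild type stem cells, Insig1 contacted its own domain most. The scaled contact value (each library brought to the same total, with the normalization before deposit not stated) fell from 73.2 ± 0.44 (SD, n = 2) with bins 7 to 11, to 39.8 ± 3.64 with bins 12 to 16 and 34.8 ± 0.10 with bins 17 to 21. Across the boundary at bin 21 it dropped to 16.0 ± 0.02 with bins 22 to 26, and lay between 8.73 and 12.2 with each window from bin 27 to bin 66. With bins 67 to 71, where Nom1 and Mnx1 lie about 1323 kb away, the mean was 13.2 ± 2.96, and with bins 72 to 76 it was 7.06 ± 1.69. The value with the Nom1 and Mnx1 bins lay above that of bins 62 to 66 (10.3 ± 2.12) by less than the spread between the 2 libraries.

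**Figure D1:**
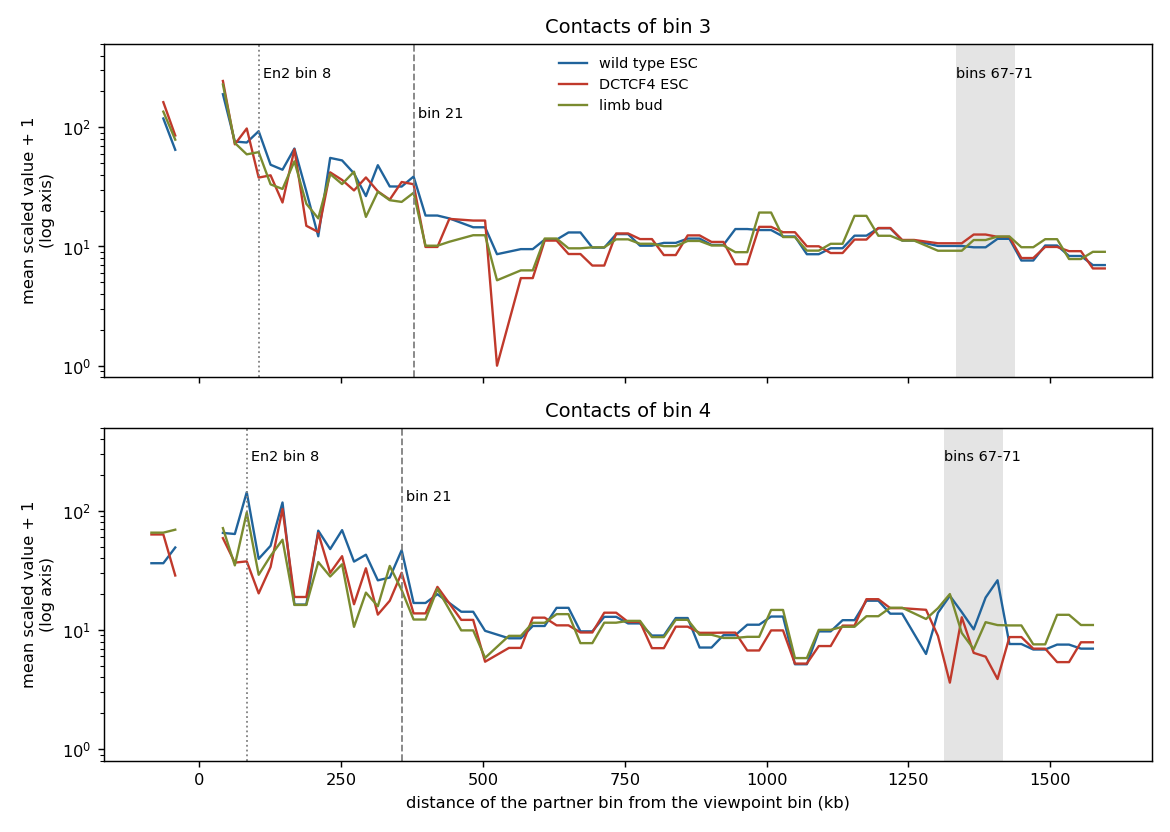
Mean scaled contact value plus 1 (log axis) of bin 3 (top) and bin 4 (bottom) with each partner bin, against the partner's distance in kb, for wild type stem cells (blue), DCTCF4 (red) and limb bud (green). Bin 4 of wild type peaks at En2 and rises again at bin 71, where DCTCF4 is low, and the lines of bin 3 drop just beyond the boundary at bin 21.

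For bin 4, En2 (bin 8) was the strongest of the 70 partners at least 4 bins away in wild type, DCTCF1, DCTCF5 and D35 cells, in both limb bud parts and in embryo bodies. Its rank was 2 in DCTCF2 and DCTCF3 and 5 in DCTCF4, where bin 11 was the strongest partner, at 103. Of bin 3, En2 was the strongest such partner in wild type, DCTCF1, DCTCF2, DCTCF5 and D35 cells and in anterior limb bud. Its rank was 3 in DCTCF3 and in embryo bodies, 5 in posterior limb bud and 6 in DCTCF4. The peak of bin 4 on En2 was narrow: in wild type the value with bin 8 was 2.56 and 3.11 times the mean of the values with bins 7 and 9 in the 2 libraries. This ratio was 1.83 and 0.95 in DCTCF4, 2.27 and 1.49 in DCTCF3 and 2.35 and 2.28 in D35, below both wild type libraries in each. It was highest in DCTCF5, at 4.45 and 8.29. The DCTCF5 values with bin 8, 109.33 and 154.63, lay on both sides of those of wild type (144.38 and 140.74). With bin 7 they were 29.43 and 23.03 against 51.18 and 74.87, and with bin 9 they were 19.73 and 14.26 against 61.42 and 15.75.

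DCTCF4 cells had the weakest contact of Insig1 with En2 of all the groups. The mean value of bins 3 and 4 with bin 8 was 123.82 and 110.60 in the wild type libraries, and 45.56 and 28.05 in DCTCF4. The groups did not overlap. The log2 change was -1.59 ± 0.24 (SE), with an adjusted p of 6.57e-04 in limma over 67 viewpoints that met a bin at the same separation of 84 kb; 7.46% of these viewpoints were called in DCTCF4. Called means an adjusted p at or under 0.05, by Benjamini-Hochberg over all features of the comparison. Among the 67 viewpoints the fall at Insig1 was the largest. The other called viewpoints started at bins 8, 45, 49 and 70. In DCTCF3 the change at Insig1 was likewise the lowest of 67. Its rank from the lowest was 2 of 65 in D35, and 2 in posterior against anterior limb bud and in limb bud against wild type. The rank was 6 in DCTCF2, 13 in DCTCF1, 26 in DCTCF5 and 17 of 34 in D700 against embryo body.

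The pair of bin 4 with bin 8 was the 1 called of the 2 pairs behind this mean. Its values were 144.38 and 140.74 in wild type and 44.08 and 29.37 in DCTCF4, which again did not overlap. The log2 change was -1.86 ± 0.23 (SE, adjusted p = 0.00257, limma over 2853 pairs). This pair rests on 1 fragment pair. The pair of bin 3 with bin 8, from 3 fragment pairs, was 103.26 and 80.46 in wild type and 47.05 and 26.73 in DCTCF4, and was not called (-1.25, adjusted p = 0.076). En2's own bin was also lower in DCTCF4 as a whole: the mean of bin 8 over its partners was 19.2 against 30.4 in wild type (log2 change -0.55, adjusted p = 0.003), and 8 of its 74 pairs were called lower. Of 77 bins tested this way, 17 were called in DCTCF4, and 0.771% of all pairs were called. When each bin's total was balanced before the fit, the change at En2 was -0.72 (adjusted p = 0.0652).

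The other edited lines had En2 contacts nearer to wild type. DCTCF3 gave 85.40 and 44.91, with the first library well above the second and both below wild type (log2 change -0.87, adjusted p = 0.0501; percent of viewpoints called 1.49%). Without the first DCTCF3 library the change was -1.30 (adjusted p = 0.0071), and without the second it was -0.43 (adjusted p = 0.724). DCTCF2 gave 78.70 and 94.52, both below wild type (-0.42, adjusted p = 0.330; 0% of viewpoints called). DCTCF1 gave 106.37 and 98.50 (-0.19, adjusted p = 0.83; 1.49% called). The DCTCF5 libraries, at 97.47 and 117.16, spanned the lower wild type value (-0.13, adjusted p = 0.820; 0% called). D35 gave 85.86 and 83.56 on the same scale, below wild type without overlap (-0.49 in a fit without bin 65, adjusted p = 0.445; 1.54% called). None of these 5 changes passed the test, and each carries an SE like that of DCTCF4.

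Within the left domain, the windows next to Insig1 were lower in DCTCF4. Of 17 windows and domains, 5 were called lower in DCTCF4 and none higher, where 6.07% of all 675 viewpoint blocks were called. With bins 7 to 11 the value was 49.19 and 48.17 against 73.55 and 72.93 in wild type, with no overlap (-0.55, adjusted p = 0.00462). With bins 12 to 16 it was 30.1 ± 1.10 against 39.8 ± 3.64 (-0.36, adjusted p = 0.0342). With bins 17 to 21 it was 26.1 ± 1.79 against 34.8 ± 0.10 (-0.36, adjusted p = 0.0315). A window beyond the boundary, bins 27 to 31, was also lower, at 6.52 ± 0.25 against 9.42 ± 0.39 (-0.34, adjusted p = 0.0468). The mean over the whole left domain, 48.9 ± 1.39 against 56.2 ± 0.58, was not called (-0.19, adjusted p = 0.269). Over the 36 pairs with the left domain the median log2 change was -0.34, with 24 pairs negative, against a median of 0.00 over all 2853 pairs. Of all pairs, 1423 were negative. The 7 to 11 window includes En2.

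The calls on these windows depended on the scaling, on run year and on single libraries. With run year as a covariate, bins 7 to 11 were still called, and bins 12 to 16 (adjusted p = 0.0565), 17 to 21 (0.145) and 27 to 31 (0.155) were not. The wild type libraries come from both run years, and those of DCTCF4 only from the later one. With each bin's total balanced, none of the 4 was called and the changes ran from -0.19 (bins 27 to 31) to -0.01 (bins 12 to 16), with -0.12 for bins 7 to 11. Without wild type replicate 1, the bins 7 to 11, 12 to 16, 17 to 21 and 27 to 31 windows were no longer called, nor was the pair of bin 4 with bin 8. Without wild type replicate 2 or DCTCF4 replicate 2, bins 12 to 16, 17 to 21 and 27 to 31 were lost, and without DCTCF4 replicate 1, bins 27 to 31.

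In D35 the window of bins 7 to 11 was the only one called of 17, where 6.43% of 669 blocks were called. Its values were 58.40 and 54.00, below both wild type libraries (-0.40, adjusted p = 0.0343), and it was lost when any of the 4 libraries was left out or when bin totals were balanced (-0.10). D35 libraries share no run year with wild type, so run year and line cannot be told apart there.

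DCTCF1 had more contact than wild type just beyond the left boundary. With bins 22 to 26, just beyond it, the value was 22.43 and 20.54 in DCTCF1 against 16.01 and 16.03 in wild type, with no overlap. This was the 1 window called of 17 (log2 change 0.34 ± 0.09 SE, adjusted p = 0.0407), where 3.41% of 675 blocks were called. The call was kept in only 2 of 12 alternatives. It was lost when any 1 of the 4 libraries was left out, and with balanced bin totals the change was 0.29 (adjusted p = 0.0774). It was also lost with a pseudocount of 1, scaled to 1 median, from observed over expected values and with run year as a covariate. Within the run years, 1 library against 1, the change was 0.39 in 2015 and 0.29 in the next year. The step across the boundary, the value with bins 17 to 21 over that with bins 22 to 26, was 1.67 and 1.61 in DCTCF1 and 2.17 and 2.18 in wild type. DCTCF2 had a like step, 1.65 and 1.70, in which bins 22 to 26 were at 17.16 and 17.31. With the central domain, 70 of 80 pairs were positive in DCTCF1 with a median of 0.21, against 0.06 over all pairs. Of all 2853 pairs, 1825 were positive. Most neighbouring pairs of the central domain share 1 value, so the 80 pairs are not separate measurements. The domain mean was 13.5 ± 0.28 against 10.9 ± 0.54 and was not called (0.22, adjusted p = 0.158). No member pair of DCTCF1 was called by limma, where 0% of pairs were called, with 23 of 148 members and 222 of all 2853 pairs at an unadjusted p under 0.05.

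In DCTCF2, DCTCF3 and DCTCF5 no window or domain of Insig1 was called, where 0.444%, 0% and 0% of blocks were called. At an unadjusted p under 0.05, limma gave 6, 4 and 2 of the 17 targets, and 92, 53 and 55 of all 675 blocks.

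**Figure D2:**
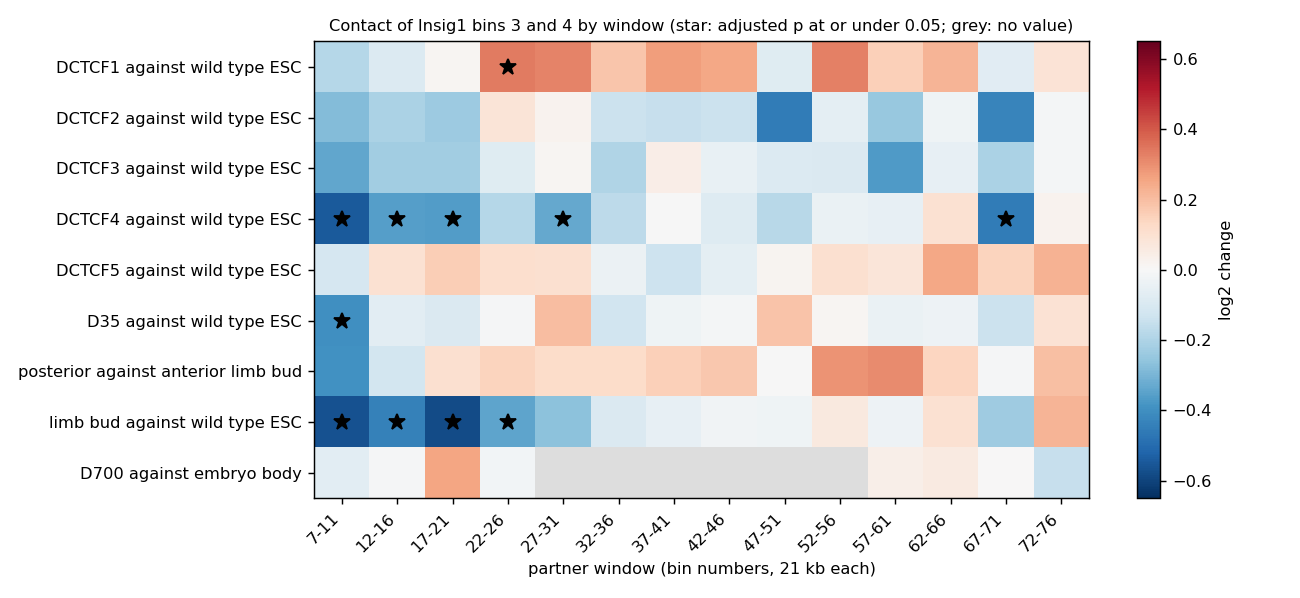
Log2 change (colour) of Insig1's contact with each window of 5 bins (columns) in each comparison (rows), from the fit over all viewpoint blocks. Stars mark an adjusted p at or under 0.05 and grey marks windows lost to the D700 deletion; the DCTCF4 stars lie at bins 7 to 21, 27 to 31 and 67 to 71, and those of limb bud at bins 7 to 26.

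The contact with the Nom1 and Mnx1 side was lower in DCTCF4. The mean of bins 3 and 4 with bins 67 to 71 was 15.26 and 11.08 in wild type and 8.39 and 8.16 in DCTCF4. Both DCTCF4 libraries lay below both of wild type (-0.46 ± 0.11 SE, adjusted p = 0.0137). With bin 3 alone the change was 0.13 (adjusted p = 0.674). For both bins together it was -0.29 without wild type replicate 1, -0.44 without DCTCF4 replicate 2, -0.25 with balanced bin totals, -0.43 scaled to 1 median and -0.34 with run year as a covariate, none of them called. DCTCF2 gave 7.70 and 9.42, also below wild type without overlap, and was not called (-0.43 ± 0.11 SE, adjusted p = 0.0928). Against wild type replicate 1 only, which shares its run year of 2015, the DCTCF2 change was -0.60.

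The remaining lines did not pass the test on this block. DCTCF3 gave 10.12 and 11.35, around the lower wild type library (-0.20, adjusted p = 0.668). DCTCF1 gave 12.81 and 11.54 (-0.07, adjusted p = 0.744), and DCTCF5 gave 16.32 and 13.56 (0.14, adjusted p = 0.746), both overlapping wild type. D35, at 12.32 and 11.26, also lay within the wild type range (-0.14, adjusted p = 0.615).

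Single pairs of bin 4 with this side fell in DCTCF2, DCTCF4 and D35. With bin 71, the wild type libraries had 27.48 and 22.91 and DCTCF2 had 4.43 and 3.31. DCTCF4 had 5.77 in one library and was listed at 0 in the other. These did not overlap wild type, with log2 changes of -1.82 ± 0.27 (SE, adjusted p = 0.0445) and -2.11 ± 0.27 (adjusted p = 0.00257) on the scale of log2(value + 4.55). D35 had 8.06 and 7.87 (-1.27 ± 0.27, adjusted p = 0.0398). DCTCF3, at 8.20 and 9.22, was as low as D35 and was not called (-1.16, adjusted p = 0.291). DCTCF1 (22.92 and 21.68) overlapped wild type at its lower library, DCTCF5 (21.67 and 19.19) lay below it without overlap, and neither was called. The pair rests on 2 fragment pairs, nearly all on 1 of them in the limb bud counts. That one held 26 and 19 counts in anterior and 31 and 0 in posterior libraries. The other held 0 and 1 in anterior and 0 and 0 in posterior libraries. The matrix values of bin 4 with bin 71 were 14.53 and 4.65 in the anterior libraries. They did not follow the counts of the larger fragment pair alone. The lower value was that of the library with 1 count on the other fragment pair. How this bears on the stem cell values was not tested.

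With bin 67, wild type had 23.70 and 13.09, DCTCF4 had 5.25 and a value listed at 0, and the change was called (-1.74 ± 0.34 SE, adjusted p = 0.0321). DCTCF2 had 3.08 and 3.98, as low as DCTCF4, and was not called, while DCTCF3 (9.32 and 7.68) lay between. DCTCF1 (21.76 and 19.10), DCTCF5 (29.43 and 18.10) and D35 (23.34 and 12.88) overlapped wild type. This pair rests on 1 fragment pair. In D35, the pair of bin 4 with bin 66 fell as well, at 1.70 and 1.43 against 16.70 and 9.21 in wild type (-1.50 ± 0.26 SE, adjusted p = 0.00692). Bin 66, beside the left-out bin 65, was lower in D35 over all its partners (14.2 against 20.1, log2 change -0.39, adjusted p = 2.27e-04), with 14 of its 74 pairs called lower, and with each bin's total balanced the pair was at -0.999 (adjusted p = 0.0775). Of 76 bins, 9 were called in D35, and 1.12% of all pairs were called.

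**Figure D3:**
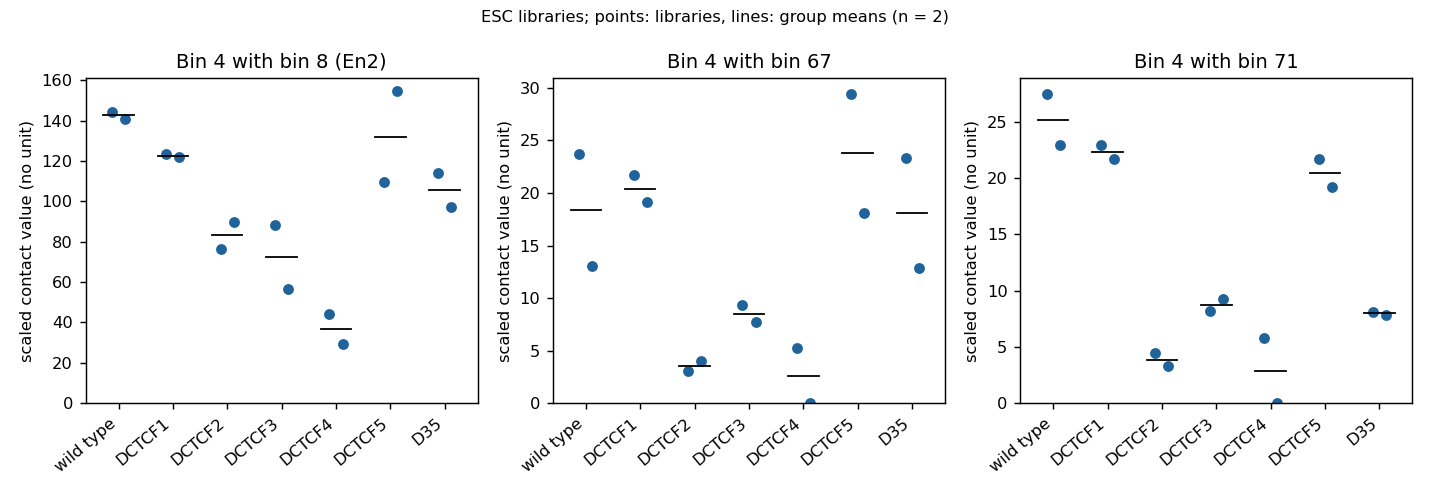
Scaled contact value (no unit, axes from 0) of bin 4 with bin 8, bin 67 and bin 71 in each stem cell library, by group; points are libraries and lines are group means (n = 2). DCTCF4 has the lowest mean in all 3 panels, DCTCF2 is as low with bins 67 and 71, and D35 is low with bin 71 and not with bin 67.

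Over all members, 3 of 148 pairs were called lower in DCTCF4 and none higher, where 0.771% of 2853 pairs were called. In DCTCF2 1 of 148 was called lower, the pair of bin 4 with bin 71, where 0.0351% of 2853 pairs were called. In D35, 2 of 146 were called lower, where 1.12% of 2778 pairs were called. In DCTCF3 and DCTCF5 no member was called by limma, where 0% and 0% of pairs were called, with 24 and 11 of 148 members, and 200 and 159 of all 2853 pairs, at an unadjusted p under 0.05. All 6 called pairs of the 3 lines belonged to bin 4 and all were lower. Without wild type replicate 1, none of the 6 was called in any of the 3 lines. The DCTCF2 pair and the D35 pair with bin 71 were also lost without wild type replicate 2 or either library of the edited line. The D35 pair with bin 66 was lost without either D35 library, and the DCTCF4 pair with bin 67 without DCTCF4 replicate 2. The pair with bin 67 was also lost with run year as a covariate (-1.53, adjusted p = 0.135). Against only the wild type library with a matching run year, the log2 changes were -2.002 for bin 71 and -1.40 for bin 67 in DCTCF4, and -1.93 for bin 71 in DCTCF2. Bin 4 as a whole was lower in DCTCF4 (-0.30, adjusted p = 0.003), DCTCF2 (-0.26, adjusted p = 0.025) and DCTCF3 (-0.25, adjusted p = 0.029). Over all 77 bins, 17 were called in DCTCF4, 9 in DCTCF2 and 1 in DCTCF3. With each bin's total balanced first, only the DCTCF4 pair of bin 4 with bin 71 was still called of the 6 (-1.73, adjusted p = 0.00986), and the other 5 lay between -1.46 and -0.85. The total of bin 3 was not called in any comparison.

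The remaining pairs named by rule, bins 3 and 4 with bins 8, 21, 22 and 67 to 71, did not pass. In DCTCF1, the 16 of them ran from -1.32 to 0.37 (smallest adjusted p = 0.546). In DCTCF4 the 13 not called ran from -1.46 to 0.27 (0.0683), and in DCTCF2 the 15 from -1.47 to 0.21 (0.235). DCTCF3 had -1.16 to 0.50 (0.291), DCTCF5 -1.13 to 0.58 (0.817) and D35 -0.87 to 0.53 for 15 of them (0.568).

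Between the limb bud parts, no contact of Insig1 passed the test in limma. As background, Shh is expressed in the posterior part of the limb bud and not in the anterior part. Insig1 with En2 was 84.68 and 99.47 in the anterior limb bud libraries and 83.28 and 45.43 in the posterior ones. Only the second posterior library was below both anterior ones by a wide margin. The change was -0.53 (adjusted p = 0.397; 0% of viewpoints called). Without posterior replicate 1 it was -0.94 (adjusted p = 7.69e-04), and 6 of 148 member pairs were called, where 1.19% of all 2853 pairs were called. The posterior part is then 1 library, assumed to vary like the other groups. No member pair (0 of 148, with 15 members and 218 of all 2853 pairs at an unadjusted p under 0.05; 0% of all pairs called) and no window (0 of 17, with 3 of these and 140 of all 675 blocks at an unadjusted p under 0.05; 0% of all blocks called) passed in limma. Contact with bins 67 to 71 was 13.84 and 7.51 in anterior and 9.85 and 10.73 in posterior limb bud, the anterior libraries lying on both sides of the posterior ones (-0.01, adjusted p = 0.970). The 16 pairs named by rule ran from -0.996 to 0.61 (smallest adjusted p = 0.559).

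The fragment counts of the same 4 limb bud libraries gave no called pair in edgeR either. Total counts were 1022801 and 1383595 in anterior and 749738 and 1400833 in posterior limb bud. The bin 3 and bin 8 fragments were joined 375 and 602 times in anterior and 238 and 239 times in posterior libraries, so the posterior counts were lower without overlap before any allowance for depth. With it, the log2 change was -0.84 (adjusted p = 0.978, edgeR quasi-likelihood test). For bin 4 with bin 8 the counts were 178 and 227 in anterior and 170 and 193 in posterior libraries, which overlapped. For bin 4 with bin 67 they were 53 and 30 against 19 and 59, and with bin 71 they were 26 and 20 against 31 and 0. The 0 came from the posterior library with the highest total of the 4. That library, posterior replicate 2, also had the lowest share of fragment pairs above 0, at 28.46%, against 34.06% to 40.83% in the others. It is also the library with the low posterior En2 value. Of 142 member pairs none was called by edgeR, as none of 2959 in all (0% called), with 4 and 94 at an unadjusted p under 0.05. DESeq2 called 1 member pair, higher in posterior, and 9 pairs in all. The labels describe no molecular identifiers, so joined reads are not independent molecules.

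Limb bud differed from wild type stem cells in the windows from En2 to the left boundary and just past it. This comparison of unedited cells spans tissue and strain, which cannot be told apart. Of 17 targets, 4 were called lower and none higher, where 11.6% of 675 blocks were called. With bins 17 to 21, the limb bud libraries had 22.67, 18.60, 21.25 and 23.72, and the stem cell libraries 34.62 and 34.77 (-0.58, adjusted p = 1.2e-04). No limb bud library reached a stem cell value, and this call held when any library was left out. With bins 12 to 16 they had 28.81, 29.73, 27.83 and 25.32 against 37.14 and 42.27, also with no overlap (-0.44, adjusted p = 0.00484, lost without wild type replicate 2). With bins 7 to 11 the means were 48.6 ± 11.0 (n = 4) and 73.0 ± 0.44 (-0.57, adjusted p = 4.15e-04). With bins 22 to 26 they were 11.51 ± 1.37 and 16.0 ± 0.02 (-0.35, adjusted p = 0.0355). That last call was lost without anterior replicate 1, posterior replicate 2 or either wild type library.

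The mean over the left domain was 47.6 ± 4.45 against 56.0 ± 0.58 (-0.22, adjusted p = 0.234), with 27 of its 36 pairs negative at a median of -0.35, against 0.05 over all pairs. Of all 2853 pairs, 1180 were negative. No single pair passed (0 of 148, with 31 members and 320 of all 2853 pairs at an unadjusted p under 0.05), and 0.0701% of all pairs were called. The 16 pairs named by rule ran from -1.25 to 0.13 (smallest adjusted p = 0.249). En2 contact was 78.3 ± 23.1 in limb bud against 116.8 ± 9.32 (-0.60, adjusted p = 0.437; 1.49% of viewpoints called). Contact with bins 67 to 71 was 10.5 ± 2.62 against 13.1 ± 2.95, which overlapped (-0.23, adjusted p = 0.234). Bin 8 over all its partners was lower in limb bud (-0.38, adjusted p = 0.017), as was bin 4 (-0.21, adjusted p = 0.033). Of all 77 bins, 8 were called in this comparison. With each bin's total balanced, bins 17 to 21 were still called (-0.47, adjusted p = 0.0126), and bins 7 to 11 (-0.15), 12 to 16 (-0.21) and 22 to 26 (-0.05) were not.

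The embryo body library had the flattest profile. Its step across the left boundary was 1.19, against 1.57 to 2.12 in the 4 limb bud libraries and 2.17 to 2.18 in wild type stem cells. The step was 1.80 and 1.31 in the D700 libraries, the second of them also below every limb bud library. The left domain value was 3.12 times that of the central domain in the body library, and 4.03 to 6.13 times in limb bud. With 1 library, the body values have no replicate check. D700 embryos were set against the body library in a fit that assumes the lone library to vary like the other groups. The body library was run in 2014 and both D700 libraries in 2015, and bodies were set against whole embryos. Deletion, tissue and run year cannot be told apart here. Insig1 with En2 was 75.79 and 96.54 in D700 and 89.00 in the body library, which lay between them (-0.05, adjusted p = 0.993; 0% of viewpoints called). With bins 67 to 71, which the deletion brings 672 kb nearer along the chromosome, the D700 libraries had 13.37 and 15.53 and the body library 14.41, again between them (0.00, adjusted p = 0.995). No member pair (0 of 86, with 6 members and 81 of all 993 pairs at an unadjusted p under 0.05, where 0.101% of 993 pairs were called) and no target (0 of 10, with none of these and 20 of all 237 blocks at an unadjusted p under 0.05, where 2.11% of 237 blocks were called) passed in limma. The 16 pairs named by rule ran from -0.47 to 0.62 (smallest adjusted p = 0.683). The scale of the libraries had to be set over the remaining bins with factors from 0.733 to 1.62. Without this scaling the median log2 change over all 993 pairs was 0.78. In that fit 54 of 86 member pairs were called higher, where 71% of all pairs were called, and contact with bins 67 to 71 was higher in D700 by 0.77 (log2).

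On 1 scale over all 21 libraries, from bins that every library holds, En2 contact ran in the order wild type (128.2), DCTCF5 (117.7), DCTCF1 (112.6), anterior limb bud (100.3), DCTCF2 (97.9), D35 (93.1), DCTCF3 (75.1), embryo body (72.4), posterior limb bud (71.9), D700 (71.6) and DCTCF4 (41.99). These are group means of scaled contact values. The place of D700 rests on this scaling over the remaining bins. Without scaling, the median log2 change of D700 against the body library over all pairs was 0.78. Of the neighbours in that order, DCTCF1 and anterior limb bud did not overlap, nor did D700 and DCTCF4, and all other neighbours overlapped or lay within the range of the next. For bins 67 to 71 the order was DCTCF5 (16.3), wild type (14.4), DCTCF1 (13.4), D35 (13.0), DCTCF3 (12.4), D700 (12.0), embryo body and anterior limb bud (both 11.7), posterior limb bud (11.48), DCTCF2 (9.67) and DCTCF4 (9.44). Here posterior limb bud and DCTCF2 were the only neighbours that did not overlap.

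**Figure D4:**
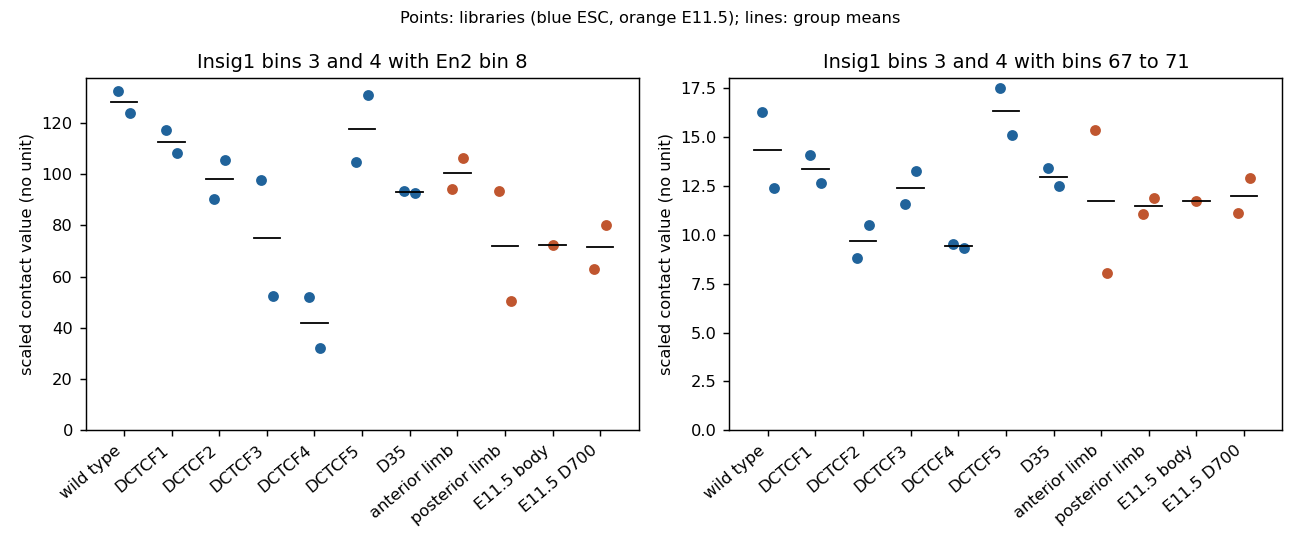
Scaled contact value (no unit, 1 scale over all 21 libraries, axis from 0) of Insig1 with En2 (left) and with bins 67 to 71 (right), by group. Each point is 1 library, blue for stem cells and orange for E11.5 tissue, and lines are group means; with En2 both DCTCF4 points lie below every wild type point.

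The authors' deposited ratios of observed over expected contact, which allow for distance, gave a like order for the stem cells. For En2 the mean ratio was 3.07 in wild type, 2.88 in DCTCF1 and in DCTCF5, 2.40 in D35, 2.25 in DCTCF2, 1.78 in DCTCF3 and 1.03 in DCTCF4. For bins 67 to 71 it was 1.37 in wild type, 1.43 in DCTCF5, 0.972 in DCTCF2 and 0.880 in DCTCF4.

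Of the left-domain bins outside bins 1 to 6, bins 16 and 17 followed Insig1 most closely in their contact with bins 67 to 71 over the 19 libraries without D700 (Spearman's rho 0.777, Pearson's r 0.818, the same for both since they share their values). Bin 7 came next (rho 0.579, r 0.588). These points share the target bins and the scaling of each library.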

How the data were processed

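The 5C libraries, made with HindIII, were deposited as 21 kb matrices of a never-negative contact signal whose normalization no label or header states. Its depth is unknown, so no interval or floor was set. The deposited files also hold ratios of observed over expected contact for the 14 stem cell libraries, and raw counts per pair of fragments for the 4 limb bud libraries. Positions are in mm9, per the submitters' processing notes. The 19 summed matrices were not used.

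Pairs of bins separated by 2 bins or more, with a value above 0 in 50% or more of the libraries, were kept, and each library was scaled to 1 total over them. Differences were tested with limma 3.58.1 under R 4.3.3, after log2(value + pseudocount), with a pseudocount at percentile 5 of the values above 0 (4.55 for the stem cells, 4.54 with D35, 5.46 for limb bud parts, 5.17 for limb bud against stem cells, 8.55 for D700). The 3 families of features were adjusted separately by Benjamini-Hochberg, namely all bin pairs, viewpoints of 2 bins with windows of 5 bins and with domains, and viewpoints with the bin at the En2 separation. Fragment counts were summed per bin pair and tested with edgeR 4.0.16, with DESeq2 1.42.0 as an alternative. The fits were tried on simulated data in which each pair was drawn independently. The real matrices hold shared values of neighbouring pairs, so the simulation does not bear on the single calls. Pairs named in the text are those called (at most the 10 of lowest p) and, whatever their values, bins 3 and 4 with bins 8, 21, 22 and 67 to 71. The 3 bins most alike were taken by Spearman correlation. Members, windows and lists were chosen with earlier results of these data known. The stem cell comparisons share the wild type libraries. Replicate numbers did not pair the samples (mean correlation of deviations 0.0079 for the same number and -0.0079 for other numbers in stem cells). Alternatives covered the pseudocount, filter, scaling, viewpoint, run year, replicate block and each library left out.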

Additional observations from a re-analysis of the deposited data

Results flagged for a closer look

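Several lines differed from each other, and not only from wild type. Here the difference between 2 edited lines was fitted directly in limma over all features. The share of all features called is not given for these fits, unlike for the comparisons with wild type. Whether the differences below are particular to Insig1, or part of broader differences between the lines, was not tested. Contact of Insig1 with En2 was lower in DCTCF4 than in DCTCF1 (log2 difference -1.40, adjusted p = 0.00254), DCTCF2 (-1.17, adjusted p = 0.0158), DCTCF5 (-1.46, adjusted p = 0.00163) and D35 (-1.14, adjusted p = 0.00321). Both DCTCF4 libraries lay below both libraries of each of these lines. The difference from DCTCF3 did not pass (-0.72, adjusted p = 0.117), and the second DCTCF3 library lay within the DCTCF4 range.

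The pair of bin 4 with bin 8 was lower in DCTCF4 than in DCTCF1 (-1.65, adjusted p = 0.00259), DCTCF5 (-1.73, adjusted p = 0.00391) and D35 (-1.44, adjusted p = 0.00118). Its differences from DCTCF2 (-1.11, adjusted p = 0.0651) and DCTCF3 (-0.89, adjusted p = 0.0878) did not pass.

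For bins 67 to 71, DCTCF4 and DCTCF2 were both lower than DCTCF1, DCTCF5 and D35. DCTCF4 was lower than DCTCF1 (-0.38, adjusted p = 0.0164), DCTCF5 (-0.60, adjusted p = 0.00215) and D35 (-0.35, adjusted p = 0.0250). DCTCF2 was lower than DCTCF1 (-0.35, adjusted p = 0.0225), DCTCF5 (-0.57, adjusted p = 0.00192) and D35 (-0.32, adjusted p = 0.0344). Neither DCTCF4 (-0.25, adjusted p = 0.222) nor DCTCF2 (-0.22, adjusted p = 0.561) passed against DCTCF3. The difference between DCTCF4 and DCTCF2 was -0.03 ± 0.11 (SE).

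The pair of bin 4 with bin 71 was lower in DCTCF4 than in DCTCF1 (-1.97, adjusted p = 0.00259) and DCTCF5 (-1.86, adjusted p = 0.00579), and lower in DCTCF2 than in DCTCF1 (-1.68, adjusted p = 0.0224). DCTCF4 did not pass against D35 (-0.87, adjusted p = 0.0610), DCTCF3 (-0.95, adjusted p = 0.113) or DCTCF2 (-0.29, adjusted p = 0.621), nor DCTCF2 against DCTCF5 (-1.57, adjusted p = 0.0512), D35 (-0.58, adjusted p = 0.199) or DCTCF3 (-0.66, adjusted p = 0.607). The pair of bin 4 with bin 67 was lower in DCTCF4 than in DCTCF1 (-1.90, adjusted p = 0.0123), DCTCF5 (-2.05, adjusted p = 0.00846) and D35 (-1.72, adjusted p = 0.00526), and lower in DCTCF2 than in D35 (-1.45, adjusted p = 0.0176). Here DCTCF4 did not pass against DCTCF3 (-0.96, adjusted p = 0.215) or DCTCF2 (-0.27, adjusted p = 0.714), nor DCTCF2 against DCTCF1 (-1.63, adjusted p = 0.0526), DCTCF5 (-1.78, adjusted p = 0.0610) or DCTCF3 (-0.69, adjusted p = 0.682).

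By run name, DCTCF2 and DCTCF3 were sequenced in 2015, DCTCF4 and DCTCF5 in the next year, DCTCF1 and wild type with 1 library in each, and D35 in a later year. These differences were chosen because the lines had calls against wild type. No library stood apart within the 4 limb bud libraries by Dixon's test. The remaining groups were too small for it.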

How the results depend on the processing

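Over 70 results and 917 alternatives, 787 kept their side of the threshold without a reversed call, or, for counts, moved little. Of 796 alternatives of a log2 change, 63 changed sign, 3 of them with a call in the main or the alternative fit. The En2 call in DCTCF4 held in 13 of 14 alternatives and the bins 17 to 21 call of limb bud in 14 of 14. Balancing by the total of each bin, chosen after seeing the data, took En2 contact in DCTCF4 to -0.72, its contact with bins 67 to 71 to -0.25, its called pairs to 1 and those of D35 to 0. In DCTCF4, contact with bins 67 to 71 was -0.43 scaled to 1 median, -0.34 with run year as a covariate and 0.13 from bin 3 alone, and the call was lost in each, as with balanced bins. The DCTCF2 count of called pairs was 0 with a pseudocount of 1, balanced, scaled to 1 median, from observed over expected values and with run year, where contact with bins 67 to 71 was -0.54 (adjusted p = 0.0296). D35 had 1 called pair with a pseudocount of 1 and 1 from observed over expected values. DCTCF3 with En2 was -0.87 without scaling (adjusted p = 0.0494). For D700 without scaling, 54 of 86 pairs were called (71% of all pairs), contact with bins 67 to 71 was 0.77, En2 0.97 and the right domain 0.66. DESeq2 called 1 member pair of the limb bud counts and 9 pairs in all. The causes were not tested. Leaving out libraries in turn, called pairs ran from 0 to 0 in DCTCF2, 0 to 8 in DCTCF4, 0 to 1 in DCTCF5, 0 to 1 in D35, 0 to 6 between limb bud parts and 0 to 18 in the fragment counts; in the fits with 8, 6 and 18, 3.43%, 1.19% and 8.46% of all pairs were called. Contact with bins 67 to 71 ran from -0.60 to -0.26 in DCTCF2 and from -0.63 to -0.29 in DCTCF4. En2 contact ran from -1.30 to -0.43 in DCTCF3 and from -0.94 to -0.13 between limb bud parts.

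With the replicate number as a block, which does not pair these samples, En2 contact in DCTCF4 was -1.59 (adjusted p = 0.00111), contact with bins 67 to 71 -0.46 (adjusted p = 0.0126) and 4 member pairs were called (1.12% of all pairs). The block ended the call of DCTCF1 with bins 22 to 26 and no other call named in the text.

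With 2 libraries a group, a bin read through 1 fragment and matrices of unknown depth, a change that misses the threshold is not shown to be absent, and a pair listed at 0 has no floor. The limb bud counts show that single pairs such as bin 4 with bin 71 rest on few joined reads (0 to 31 in a library).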
